A study of Mus musculus with 7 samples.

Results

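The genes described here are 9 myogenic factors and satellite cell genes, Pax7, Pax3, Cdh15, Myf5, Myod1, Myog, Myf6, Mef2c and Chrnd, out of 55423 features in the deposited count table. They were chosen by name, as regulators of the skeletal muscle lineage and products of muscle precursors or young fibres, and not by a threshold on their values. Raw counts and CPM values (reads of a gene scaled to a common library size, after TMM) were read in 3 tumours of Ivl:BRAFV600E mice and 3 tumours of Ivl:BRAFV600E-SOX2LSL mice. Bulk RNA of mouse skin tumours was sequenced after removal of ribosomal RNA, so that fewer cells of a type and less RNA per cell cannot be told apart.

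All mice were on a C57BL/6J background and carried a tamoxifen-inducible Cre under the Ivl (involucrin) promoter, which is active in committed cells of the epidermis, together with 1 copy of the inducible BRAFV600E allele. Ivl:BRAFV600E-SOX2LSL mice also carried 1 copy of a Rosa26 allele that expresses SOX2 and eGFP once its stop cassette is removed. Of the Ivl:BRAFV600E mice, 2 also carried 1 copy of a Rosa26 tdRFP reporter. Recombination was induced by tamoxifen on the back skin at 7 to 10 weeks of age per the labels, and tumours were taken at the clinical endpoint. The Ivl:BRAFV600E tumours came from 2 females and 1 male, and the Ivl:BRAFV600E-SOX2LSL tumours from 2 males and 1 female. Every Ivl:BRAFV600E-SOX2LSL tumour was collected earlier after induction than every Ivl:BRAFV600E tumour, so time and genotype cannot be told apart. Tumours are called the first, the second and the third in the order of the table, which carries no meaning of its own.

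Skeletal muscle is built and repaired by precursor cells, which in the adult are the satellite cells that lie along the fibres and express the paired box factor Pax7. On activation, these cells turn on the basic helix-loop-helix factors Myf5 and Myod1, then Myog as they exit the cell cycle and differentiate, while Myf6 (MRF4) is the member of this family that stays on in mature fibres. MEF2 factors, among them Mef2c, work with these factors on muscle promoters, and Mef2c is also used by endothelial, myeloid and neural cells.

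Total counts ranged from 23565432 to 31152826 per tumour, and a level of 3 reads, taken as the floor for a gene with no reads, corresponded to between 0.0839 and 0.143 CPM. The labels were checked on the transgene. EGFP had no read in any Ivl:BRAFV600E tumour and 4957, 3410 and 3132 reads in the Ivl:BRAFV600E-SOX2LSL tumours, and Sox2 had 21, 11 and 5 against 6507, 4787 and 4369 reads. Keratinocyte markers were abundant in every tumour, with a summed level of 102553 to 165325 CPM in Ivl:BRAFV600E and 18285 to 67111 CPM in Ivl:BRAFV600E-SOX2LSL tumours, and the groups did not overlap. None of these 10 markers was called by edgeR, 1 was higher and 4 were lower at an unadjusted p below 0.05, and DESeq2 called 1 higher and 4 lower.

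The 4 basic helix-loop-helix factors are paralogues, and the coding stretch in which they are most alike is shown to give the reader the family's shared core and to show how far reads of 1 gene could be taken for another. The window of 90 bases was the ungapped coding window with the most identities to Myod1 in GENCODE M21 transcripts, and capitals mark the bases that differ from Myod1.
Myod1: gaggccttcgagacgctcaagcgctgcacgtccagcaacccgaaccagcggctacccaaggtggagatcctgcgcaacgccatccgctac
Myf5: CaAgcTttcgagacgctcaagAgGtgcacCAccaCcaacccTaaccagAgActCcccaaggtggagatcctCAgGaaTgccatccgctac
Myog: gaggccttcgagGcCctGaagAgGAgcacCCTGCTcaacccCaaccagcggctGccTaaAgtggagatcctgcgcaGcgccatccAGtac
Myf6: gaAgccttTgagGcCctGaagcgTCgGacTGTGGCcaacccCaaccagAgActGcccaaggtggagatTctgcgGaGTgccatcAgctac

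On GRCm38 these windows lie in exon 1 of each gene, at chr7:46377051-46377140 on the plus strand for Myod1, chr10:107485542-107485631 on the minus strand for Myf5, chr1:134290350-134290439 on the plus strand for Myog and chr10:107494285-107494374 on the minus strand for Myf6. Of the 90 bases, 58 were identical in all 4 genes. Myf5 differed from Myod1 at 16 bases, Myog at 19 and Myf6 at 23. The longest identical run between any pair of the longest transcripts of these 4 genes was 26 bases, between Myod1 and Myf5. Pax3 and Pax7 also shared a longest run of 26 bases. The exons of the 9 genes overlapped no exon of another gene in this annotation.

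The comparison of the genotypes asks whether the levels of these 9 genes differed between tumours with and without the SOX2 allele. Reads of the muscle regulators were few in all tumours, and 4 of the 9 genes (Myod1, Myog, Myf5 and Myf6) had no read in any Ivl:BRAFV600E tumour. All 9 genes had a higher mean level in the Ivl:BRAFV600E-SOX2LSL tumours, but the tumours of that group differed widely from each other. Of the 9, 8 passed the filter of at least 5 reads in at least 1 tumour and were tested among 24433 genes. Myf5 did not pass. With edgeR's quasi-likelihood test and Benjamini-Hochberg adjustment, 1 of the 8 tested genes (Myf6) was called higher at an adjusted p below 0.05 and 0 were called lower, where 2.39% of all tested genes were called higher and 1.51% lower. At an unadjusted p below 0.05, 6 of the 8 were higher and 0 lower, beside 14.5% of all tested genes. Every Ivl:BRAFV600E-SOX2LSL tumour lay above every Ivl:BRAFV600E tumour for 6 of the 8, beside 18.2% of all tested genes. For Myod1 and Myog this rests on a single read in the third Ivl:BRAFV600E-SOX2LSL tumour, which is under the floor of 3 reads and cannot be told from 0. The filter keeps low genes through the group in which they are high, so these shares are a description.

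**Figure D1:**
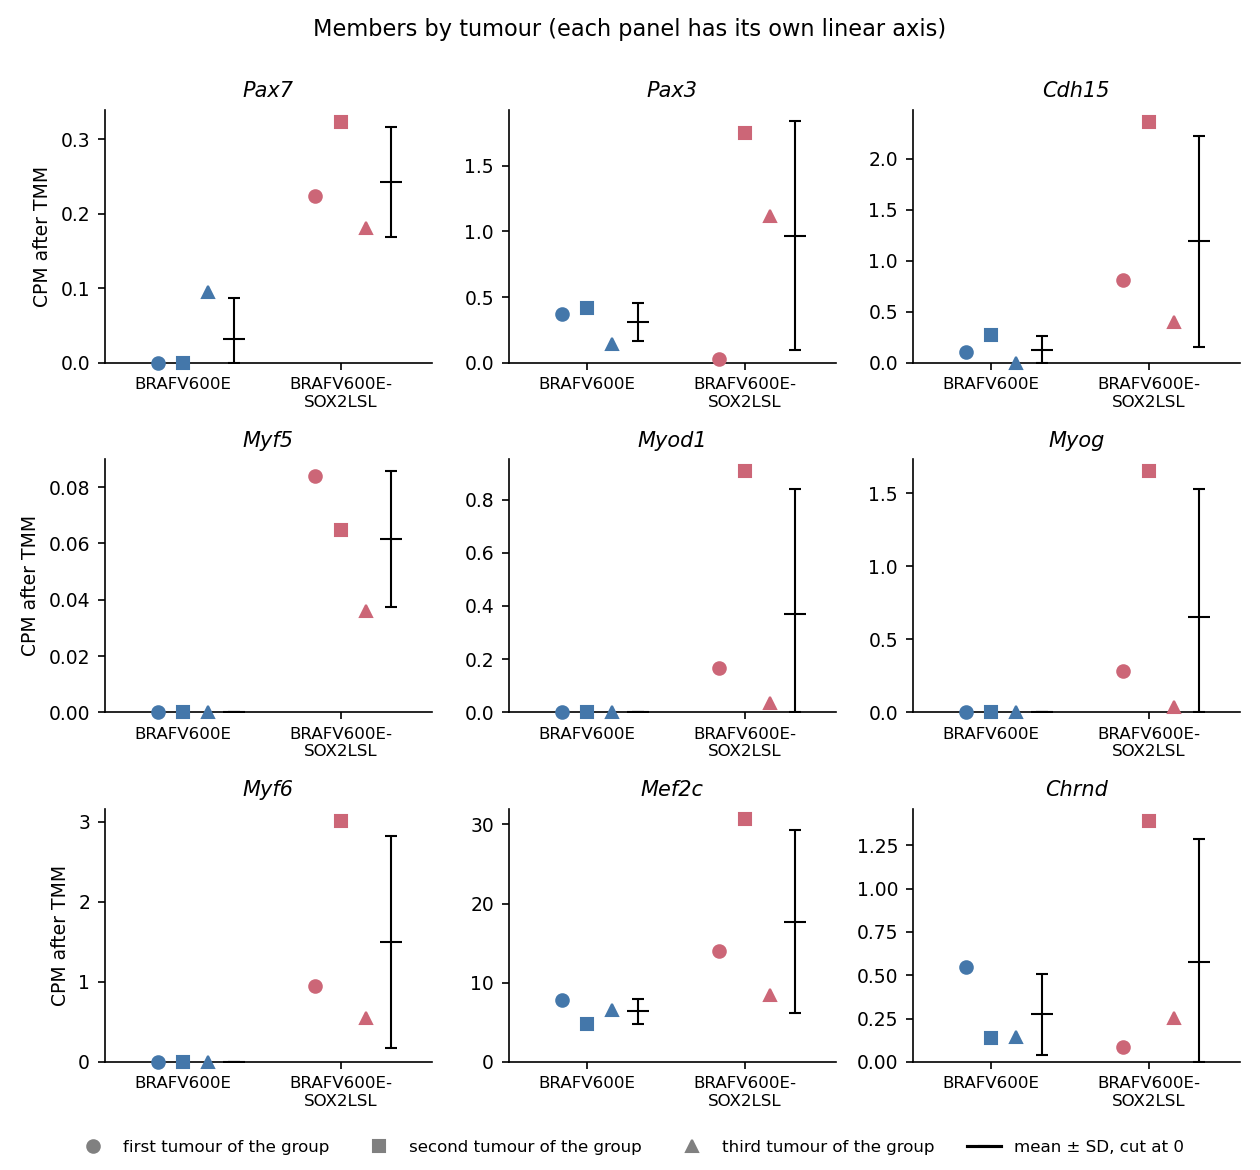
The level of each of the 9 genes in CPM after TMM (vertical axis, linear, a scale of its own per panel) in the 3 Ivl:BRAFV600E (blue) and 3 Ivl:BRAFV600E-SOX2LSL tumours (red), with the mean and SD of each group. The second Ivl:BRAFV600E-SOX2LSL tumour was the highest of the 6 for 8 of the 9 genes, Myf5 being the exception, and the groups overlapped for Pax3 and Chrnd.

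The satellite cell factor Pax7 (ENSMUSG00000028736, chr4:139737062-139833528, minus strand) had 0, 0 and 2 reads in the Ivl:BRAFV600E tumours and 8, 10 and 5 in the Ivl:BRAFV600E-SOX2LSL tumours. The groups did not overlap, and the Ivl:BRAFV600E-SOX2LSL tumours stayed close to each other, at 0.224, 0.324 and 0.181 CPM (mean 0.243 ± 0.0735, SD, n = 3). The ratio of the summed reads, divided by the ratio of the TMM-scaled library sizes, was 8.78 with a counting interval of 2.17 to 76.8 (95%, exact binomial), which covers counting error only. The difference between the groups had an adjusted p of 0.163 (edgeR) and was not called. The fitted log2 fold change of 2.90 was 5.85 without the third Ivl:BRAFV600E tumour, the only one of its group with reads, and 2.26 without the first.

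Cdh15 (ENSMUSG00000031962, chr8:122847966-122867397, plus strand) encodes M-cadherin, the adhesion protein between satellite cells and fibres. It had 3, 6 and 0 reads in the Ivl:BRAFV600E tumours and 29, 73 and 11 reads in the Ivl:BRAFV600E-SOX2LSL tumours. Levels were 0.126 ± 0.140 CPM against 1.19 ± 1.04 CPM (SD, n = 3 each), with no overlap and with the second Ivl:BRAFV600E-SOX2LSL tumour well above the other two. The log2 fold change was 3.20 (SE 1.02) with an adjusted p of 0.113 (edgeR), and the gene was called by DESeq2 (adjusted p = 0.0183). With a tumour left out it ranged from 2.23, without the second Ivl:BRAFV600E-SOX2LSL tumour, to 4.28, without the second Ivl:BRAFV600E tumour.

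Pax3 (ENSMUSG00000004872, chr1:78101267-78197134, minus strand) specifies muscle precursors in the embryo and is also a factor of melanocytes and neural crest derivatives. It had 11, 9 and 3 reads in the Ivl:BRAFV600E tumours and 1, 54 and 31 reads in the Ivl:BRAFV600E-SOX2LSL tumours. The first Ivl:BRAFV600E-SOX2LSL tumour had the lowest level of all 6 (0.0280 CPM), while the second and the third lay above every Ivl:BRAFV600E tumour, at 1.75 and 1.12 CPM, so that the groups overlapped. The log2 fold change of 1.599 (SE 1.08) was not called (edgeR, adjusted p = 0.385), and it was 0.83 without the second Ivl:BRAFV600E-SOX2LSL tumour. The summed melanocyte marker level was 8.96 to 22.1 CPM in the Ivl:BRAFV600E and 17.8 to 20.6 CPM in the Ivl:BRAFV600E-SOX2LSL tumours, with 0 of 8 tested markers of 10 called by edgeR (1 higher at an unadjusted p below 0.05, 0 by DESeq2) and Oca2 alone at or under 3 reads in every tumour. The part of melanocytes in the Pax3 level was not tested.

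Of the determination factors, Myf5 (ENSMUSG00000000435, chr10:107482908-107486134, minus strand) was barely detected. It had no read in the Ivl:BRAFV600E tumours and 3, 2 and 1 reads in the Ivl:BRAFV600E-SOX2LSL tumours. Both groups were at or under the floor, so that no fold is given. Without the filter on low counts its adjusted p was 0.272 (edgeR).

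Myod1 (ENSMUSG00000009471, chr7:46376474-46379099, plus strand), the factor that commits cells to the muscle lineage, had no read in any Ivl:BRAFV600E tumour and 6, 28 and 1 reads in the Ivl:BRAFV600E-SOX2LSL tumours. The second of these carried most of the reads, at 0.907 CPM, and the third had a single read. The mean of 0.370 ± 0.469 CPM (SD, n = 3) was at least 2.60-fold higher than the Ivl:BRAFV600E floor, taken as 3 reads per library in the library where they weigh most. Without the second Ivl:BRAFV600E-SOX2LSL tumour the mean was 0.102 CPM, under that floor of 0.143 CPM, and no bound is left. The difference was not called by edgeR (adjusted p = 0.145) and was called by DESeq2 (adjusted p = 0.0333).

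Myog (myogenin, ENSMUSG00000026459, chr1:134289989-134292548, plus strand), which drives terminal differentiation, showed the same order of tumours. It had 0 reads in every Ivl:BRAFV600E tumour against 10, 51 and 1 reads, with levels of 0.280, 1.65 and 0.0361 CPM. The mean was at least 4.60-fold higher than the floor, and at least 1.11-fold higher without the second Ivl:BRAFV600E-SOX2LSL tumour. The difference was not called by edgeR (adjusted p = 0.138), and DESeq2 called it (adjusted p = 0.00910).

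The 250 bases before the RefSeq start of Myog (GRCm38.p6, chr1:134289754-134290003, plus strand) are shown because Myog is a known target of the other factors of the family. Capitals mark the E-box CANNTG, the word that basic helix-loop-helix factors bind and that reads the same pattern on both strands.
Myog promoter: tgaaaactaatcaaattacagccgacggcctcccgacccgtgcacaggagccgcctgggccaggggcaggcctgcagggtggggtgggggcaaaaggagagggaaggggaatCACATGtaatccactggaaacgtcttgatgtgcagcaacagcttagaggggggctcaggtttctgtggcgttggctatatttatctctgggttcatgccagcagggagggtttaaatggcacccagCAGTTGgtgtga

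The window held 2 matches, beginning 138 and 12 bases before the start, and 31.8% of the 32851 RefSeq promoters of the same length held at least 2. The table held promoters of 5 of the 9 genes. Cdh15 had 3 matches, which 12.2% of all promoters reached, the 3 listed Mef2c starts had 2, 0 and 1, and Pax7 and Myf5 had 0. A match is a description of letters, not of a bound site.

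Myf6 (ENSMUSG00000035923, chr10:107492853-107494737, minus strand), the neighbour of Myf5 on chromosome 10, had the most reads of the 4 factors. It had 0 reads in every Ivl:BRAFV600E tumour and 34, 93 and 15 reads in the Ivl:BRAFV600E-SOX2LSL tumours, or 0.951, 3.01 and 0.542 CPM. It was detected in every Ivl:BRAFV600E-SOX2LSL tumour well above the floor, and its mean of 1.50 ± 1.32 CPM (SD, n = 3) was at least 10.5-fold higher than the Ivl:BRAFV600E floor, and at least 5.24-fold higher without the second Ivl:BRAFV600E-SOX2LSL tumour. This was the only called difference among the 8 tested genes (edgeR, adjusted p = 0.0495), at the edge of the threshold. When each tumour was dropped in turn, 1 of 6 refits kept the call, with adjusted p-values from 0.0424 to 0.160, namely the refit without the first Ivl:BRAFV600E-SOX2LSL tumour (0.0424). It was also lost with sex as a covariate (adjusted p = 0.0982), with limma voom (0.0720) and with DESeq2's size factors (0.0501).

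Mef2c (ENSMUSG00000005583, chr13:83504034-83667080, plus strand) was the only one of the 9 genes with more than 100 reads in every tumour. Its counts were 229, 103 and 137 in the Ivl:BRAFV600E and 501, 948 and 234 in the Ivl:BRAFV600E-SOX2LSL tumours, or 6.36 ± 1.53 against 17.7 ± 11.6 CPM (SD, n = 3 each). The groups did not overlap, but the third Ivl:BRAFV600E-SOX2LSL tumour, at 8.45 CPM, lay just above the first Ivl:BRAFV600E tumour, at 7.81 CPM. The log2 fold change of 1.48 (SE 0.47) was not called by edgeR (adjusted p = 0.111) and was called by DESeq2 (adjusted p = 0.0185). It was 0.82 without the second Ivl:BRAFV600E-SOX2LSL tumour.

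Other cells that use Mef2c were present in both groups. The summed endothelial marker level was 193 to 211 CPM in the Ivl:BRAFV600E and 201 to 232 CPM in the Ivl:BRAFV600E-SOX2LSL tumours, with 0 of 10 markers called by edgeR (1 higher and 1 lower at an unadjusted p below 0.05, 0 higher and 1 lower by DESeq2) and none at 0. The summed macrophage and B cell markers were at 65.9 to 138 CPM against 145 to 495 CPM without overlap, and 2 of 9 tested markers of 10, Csf1r and Ptprc, were called higher by edgeR (6 higher at an unadjusted p below 0.05, 5 by DESeq2, 0 lower by either), while the B cell marker Cd79a was at or under 3 reads in every tumour. The part of these cells in the Mef2c level was not tested.

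Chrnd (ENSMUSG00000026251, chr1:87190607-87200070, plus strand) encodes the delta subunit of the muscle acetylcholine receptor. It had 16, 3 and 3 reads in the Ivl:BRAFV600E tumours and 3, 43 and 7 reads in the Ivl:BRAFV600E-SOX2LSL tumours, and the groups overlapped. The higher mean of the Ivl:BRAFV600E-SOX2LSL group (0.577 ± 0.712 against 0.276 ± 0.234 CPM, SD, n = 3 each) rested on the second tumour. The log2 fold change of 0.999 (SE 1.05, edgeR adjusted p = 0.582) turned to -0.77 without that tumour and was 2.00 without the first Ivl:BRAFV600E tumour.

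Over the 8 tested genes the median fitted log2 fold change was 3.05, or 1.90 with the 3 genes that had no read in Ivl:BRAFV600E set to their bound, beside 0.04 over all tested genes. DESeq2 called 5 of the 7 genes to which it gave an adjusted p (Cdh15, Mef2c, Myf6, Myod1 and Myog), where it called 10.5% of all genes higher. It gave none for Pax7. With 3 tumours against 3, the smallest 2-sided p of an exact permutation test on a single gene is 0.1, so no such test is given. All p-values set the difference against a spread between these tumours that edgeR, DESeq2 and limma estimate partly from the other genes.

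Levels of different genes were compared as CPM per kilobase of exons in the Ivl:BRAFV600E-SOX2LSL tumours. On this scale Myf6 (mean 1.19 ± 1.05) and Mef2c (1.13 ± 0.737) came first, followed by Myog (0.439 ± 0.583), Cdh15 (0.366 ± 0.319), Myod1 (0.199 ± 0.252), Chrnd (0.175 ± 0.217), Pax3 (0.156 ± 0.141), Pax7 (0.0414 ± 0.0125) and Myf5 (0.0296 ± 0.0116, SD, n = 3 each). Every gene in this order overlapped in range with the next. The order held in all 3 tumours for Mef2c above Myog and for Cdh15 above Myod1, and in 1 or 2 tumours for the other neighbours. The length used was that of all annotated exons of a gene joined. For Mef2c this was 15715 bases, where its longest transcript had 6277, and for Pax3 it was 6187 against 3863. Transcript lengths would raise the levels of both genes, so their places in the order depend on the length chosen.

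The fibres themselves were read from 30 genes of the mature fibre (contractile proteins, calcium handling and muscle enzymes). Of these, 28 passed the filter, 25 were higher and 0 lower (edgeR, adjusted p below 0.05), beside 2.39% and 1.51% of all tested genes. The count of 25 was 0 without the first Ivl:BRAFV600E tumour, 2 without the second and 7 without the third, 13 without the second Ivl:BRAFV600E-SOX2LSL tumour and 5 with limma voom. Their summed counts were 319, 263 and 569 reads in the Ivl:BRAFV600E tumours and 132710, 127408 and 26865 reads in the Ivl:BRAFV600E-SOX2LSL tumours, the first and second of which were close to each other. Titin (Ttn), the giant spring of the sarcomere, was at 0.887, 0.785 and 8.50 CPM against 1932, 2009 and 509 CPM, with a log2 fold change of 8.79 (SE 1.25), or 10.78 without the third Ivl:BRAFV600E tumour. Atp2a1, the calcium pump of fast fibres, Actn2, an actinin of the Z disc, and Neb, the thin filament protein nebulin, had log2 fold changes of 7.94 (SE 0.71), 6.86 (SE 0.61) and 6.59 (SE 0.81). Neb was at 7.27 without the third Ivl:BRAFV600E tumour and at 5.88 without the second Ivl:BRAFV600E-SOX2LSL tumour. The slow myosin Myh7 and the troponin gene Tnnc2 did not reach the filter. The median log2 fold change of the 28 was 7.18, or 6.99 with genes that were at 0 in Ivl:BRAFV600E set to their bound.

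Reads of the regulators were also set against those of the fibre genes in each Ivl:BRAFV600E-SOX2LSL tumour. For every 100000 reads on mature fibre genes, the 4 basic helix-loop-helix factors together had 39.9 reads (exact Poisson 95% interval 29.9 to 52.2) in the first Ivl:BRAFV600E-SOX2LSL tumour, 137 (117 to 158) in the second and 67.0 (39.7 to 106) in the third. The second tumour lay above both others, whose intervals overlapped. Cdh15 stood at 21.9 (14.6 to 31.4), 57.3 (44.9 to 72.0) and 40.9 (20.4 to 73.3), and Chrnd at 2.26 (0.466 to 6.61), 33.7 (24.4 to 45.5) and 26.1 (10.5 to 53.7), with the first tumour lowest for both, although for Cdh15 its interval overlapped that of the third.

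For Pax7 the 3 tumours could not be told apart on this scale, at 6.03 (2.60 to 11.9), 7.85 (3.76 to 14.4) and 18.6 (6.04 to 43.4). Chrna1, the alpha subunit of the receptor to which Chrnd also belongs, was at 98.7 (82.5 to 117), 93.4 (77.4 to 112) and 63.3 (36.9 to 101), with overlapping intervals. Csrp3, a muscle LIM protein, was at 139 (120 to 161), 385 (352 to 421) and 383 (313 to 465), so that the first tumour was lowest. These intervals cover counting error only, and each tumour is a single sample. This ratio was chosen after the values had been seen.

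**Figure D2:**
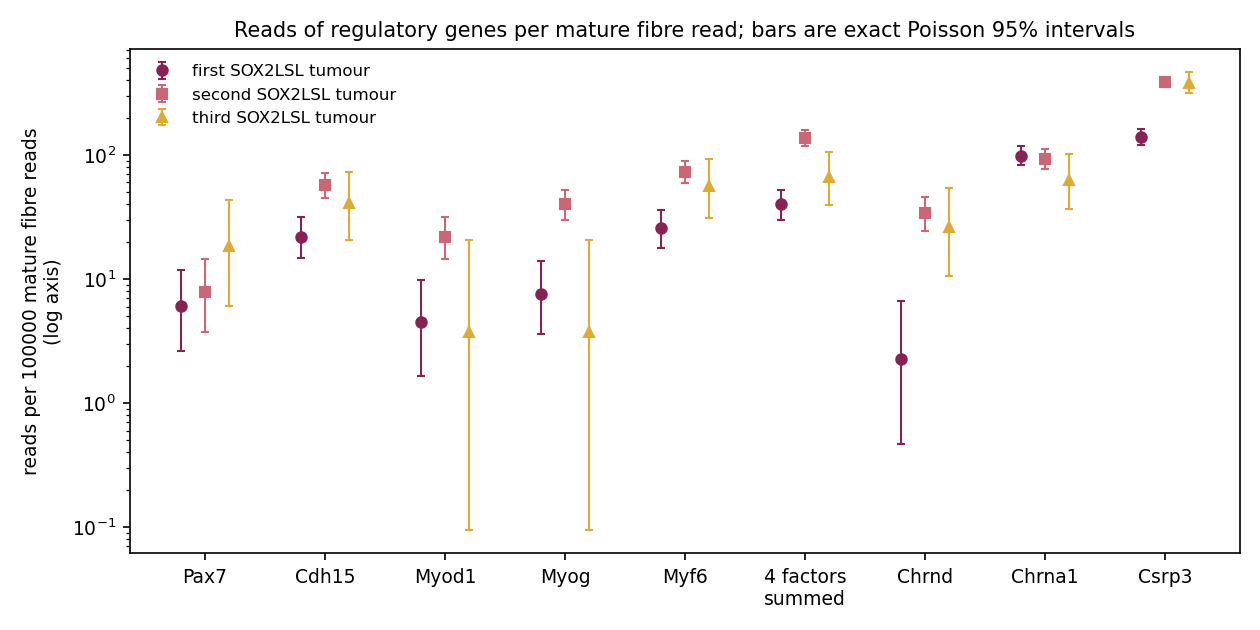
Reads of regulatory genes per 100000 reads on mature fibre genes (vertical axis, logarithmic) in the 3 Ivl:BRAFV600E-SOX2LSL tumours, with exact Poisson 95% intervals. The 4 factors summed stood at 137 in the second tumour against 39.9 and 67.0 in the others, while Chrna1 overlapped in all 3.

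Of the other genes of the pathway, 6 lists with 132 genes were read, and 124 passed the filter. In these, 40 genes were higher and 1 was lower (edgeR, adjusted p below 0.05), with a median log2 fold change of 1.50, or 1.46 with bounds, beside 0.04 over all tested genes. Of all tested genes, 2.39% were called higher and 1.51% lower, which is the share to set beside the counts of each list. Most of the calls, 25 of the 40, were mature fibre genes. The count of 40 was 0 without the first Ivl:BRAFV600E tumour, 2 without the second, 8 without the third and 19 without the second Ivl:BRAFV600E-SOX2LSL tumour.

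**Figure D3:**
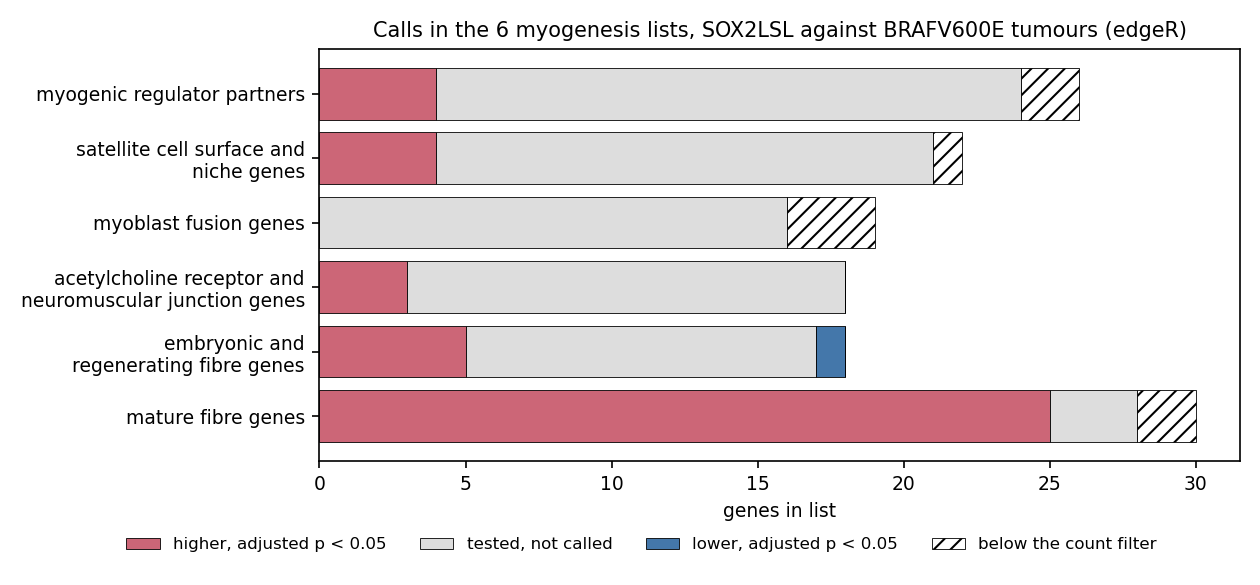
The number of genes in each of the 6 lists (horizontal axis) that were called higher, called lower, tested without a call or below the count filter. The mature fibre list held 25 of 30 genes called higher, and the myoblast fusion list held 0 of 19.

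Among 26 partners of the myogenic factors (E proteins, Id inhibitors, MEF2 and homeobox factors and cofactors), 24 were tested, 4 were higher and 0 lower, with a median log2 fold change of 0.47. At an unadjusted p below 0.05 (edgeR), 9 were higher and 2, Id1 and Hdac5, were lower, beside 14.5% of all tested genes higher. DESeq2 called 7 higher and 1 lower, where it called 10.5% of all genes higher. Smyd1, a methyltransferase of striated muscle, had 1, 0 and 1 reads against 176, 136 and 32 reads, a ratio of 131 after scaling for library size (counting interval 36.1 to 1089; edgeR adjusted p = 0.0186). Tcf4, an E protein that pairs with the myogenic factors and is widely expressed, rose from 52.3 ± 3.62 to 104.8 ± 12.6 CPM (log2 fold change 1.004, SE 0.13, adjusted p = 0.0199). Tcf3 and Six4 were the other called genes. The 4 calls became 0 without any 1 of the Ivl:BRAFV600E tumours, 1 without the second Ivl:BRAFV600E-SOX2LSL tumour, and 2 with limma voom or with sex as a covariate. The abundant Mef2a and Hdac4 differed by -0.06 (SE 0.11) and 0.25 (SE 0.16) and were not called.

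Among 22 surface and niche genes of satellite cells, 21 were tested, 4 were higher and 0 lower, with a median log2 fold change of 0.93. Desmin (Des), the intermediate filament of all muscle cells, rose from 2.24 ± 0.856 to 96.6 ± 67.8 CPM (log2 fold change 5.43, SE 0.69, edgeR adjusted p = 0.0179), with a log2 fold change of 4.79 without the second Ivl:BRAFV600E-SOX2LSL tumour. Itga7, the laminin-binding integrin of muscle, rose from 5.72 ± 1.88 to 22.0 ± 4.70 CPM (1.94, SE 0.28, adjusted p = 0.0251). Met and Ncam1 were the other called genes. The 4 calls became 0 without any 1 of the Ivl:BRAFV600E tumours, and 1 without the second or without the third Ivl:BRAFV600E-SOX2LSL tumour and with sex as a covariate. Itga7 lost its call in 5 of the 6 refits without a tumour (adjusted p from 0.0532 to 0.0844, edgeR) and with sex as a covariate (0.0595). The widely expressed Itgb1 and Sdc4 differed by 1.63 (SE 0.47) and 0.25 (SE 0.12) and were not called by edgeR, while DESeq2 called Itgb1 (adjusted p = 0.00669). The first Ivl:BRAFV600E-SOX2LSL tumour had the most Itgb1, at 1142 CPM against 373 and 321 CPM, and without it the log2 fold change was 0.81 and called (edgeR, adjusted p = 0.0121). Calcr, the calcitonin receptor of quiescent satellite cells, did not exceed 3 reads in any tumour.

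Among 19 genes of myoblast fusion, 16 were tested and 0 were called in either direction by edgeR, with a median log2 fold change of 0.69. At an unadjusted p below 0.05, 8 of them were higher and 0 lower, beside 14.5% of all tested genes higher. DESeq2 called 4 higher and 0 lower, where it called 10.5% of all genes higher. With edgeR, 1 was called higher without a filter on low counts (Dock5, adjusted p = 0.0484), with filterByExpr (Capn3, 0.0454) and without the first Ivl:BRAFV600E-SOX2LSL tumour (Dock5, 0.0476). The 2 muscle-specific fusogens were nearly undetected. Mymk (myomaker) had 2 reads in the second Ivl:BRAFV600E-SOX2LSL tumour and none elsewhere, and Mymx (myomixer) had 1 read in the first and 1 in the second. The smallest p-values were those of Capn3, a muscle calpain (log2 fold change 1.79, SE 0.41, edgeR adjusted p = 0.0571), and Dock5 (0.77, SE 0.19, adjusted p = 0.0699). The widely expressed Myof and Itga3 differed by 0.61 (SE 0.21) and 1.48 (SE 0.49). Of these 4 genes, DESeq2 called Capn3 (adjusted p = 0.0101), Dock5 (0.0132) and Itga3 (0.0202). Itga3 was at 549 CPM in the first Ivl:BRAFV600E-SOX2LSL tumour against 159 and 164 CPM in the others, and its log2 fold change was 0.63 without the first.

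Among 18 genes of the acetylcholine receptor and the neuromuscular junction, all were tested, 3 were higher and 0 lower, with a median log2 fold change of 1.02. At an unadjusted p below 0.05 (edgeR), 8 were higher and 1 was lower, namely Dok7 (log2 fold change -1.58, SE 0.52). DESeq2 called 5 higher and 1 lower. Chrna1 had 4, 1 and 2 reads against 131, 119 and 17 reads, with no overlap (log2 fold change 4.77, SE 0.84, edgeR adjusted p = 0.0332), whereas for Chrnd the groups overlapped. The difference between the 2 subunits was not tested. The fetal gamma subunit Chrng had 6, 0 and 4 against 0, 7 and 2 reads, and the adult epsilon subunit Chrne had 11, 3 and 3 against 0, 5 and 9 reads, both with overlapping groups. Etv5, an ETS factor that is also widely expressed, rose from 13.1 ± 0.559 to 34.0 ± 7.52 CPM (1.38, SE 0.18, adjusted p = 0.0196), and Ldb3 was the other called gene. The 3 calls became 0 without any 1 of the Ivl:BRAFV600E tumours and with sex as a covariate, and 1 without the second Ivl:BRAFV600E-SOX2LSL tumour and with limma voom. Chrna1 lost its call with limma voom (adjusted p = 0.118), with sex as a covariate (0.0762) and in 4 of the 6 refits without a tumour (0.0731 to 0.139). The widely expressed Prkar1a and Erbb3 differed by -0.12 (SE 0.16) and -0.03 (SE 0.25).

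Among 18 genes of embryonic or regenerating fibres, all were tested, 5 were higher and 1, the troponin gene Tnnt2, was lower, with a median log2 fold change of 1.92. Myl1, a fast myosin light chain, had 2, 1 and 0 reads against 1059, 1029 and 230 reads, a ratio of 590 after the same scaling for library size (counting interval 202 to 2863; edgeR adjusted p = 0.00775). Its fitted log2 fold change of 9.02 was 9.73 without the first Ivl:BRAFV600E tumour. Csrp3 had 1, 0 and 1 reads against 185, 491 and 103 reads, a scaled ratio of 297 (82.1 to 2460; edgeR adjusted p = 0.0132), and its fitted log2 fold change was 7.11 without the second Ivl:BRAFV600E-SOX2LSL tumour. Ankrd1, Ncam1 and Lmod2 were the other higher genes. The 5 calls became 0 without the first or without the second Ivl:BRAFV600E tumour and with limma voom, 1 without the third Ivl:BRAFV600E tumour, 3 without the second or without the third Ivl:BRAFV600E-SOX2LSL tumour and 2 with sex as a covariate. The count of 1 lower became 0 in 5 of the 6 refits without a tumour and with sex as a covariate, and 2 with DESeq2. The embryonic myosin Myh3 had 1, 0 and 1 against 2, 2 and 6 reads and the perinatal myosin Myh8 had 0, 0 and 1 against 11, 13 and 3 reads, and neither was called. The widely expressed Cdkn1a and Runx1 differed by -0.29 (SE 0.15) and 0.83 (SE 0.30).

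The genes with the profile most like the mean of the tested muscle members (Myod1, Myog, Myf6, Pax7, Cdh15 and Chrnd) over the 6 tumours, by Euclidean distance of centred log2 CPM, were Myom3 (distance 0.326), Gm35507 (0.619), Fndc5 (0.803), Sync (0.895) and Myhas (0.896). Myom3, a protein of the sarcomere's M band, had 59, 31 and 33 reads against 220, 621 and 118 reads, with the second Ivl:BRAFV600E-SOX2LSL tumour highest, as for the factors. The nearest to Pax3 were Col4a6 (0.928), Kcnc4 (1.01) and Aldh3a1 (1.14), which were likewise lower in the first Ivl:BRAFV600E-SOX2LSL tumour than in the others. These genes were picked for likeness over the same 6 tumours, so a shared order of tumours follows from the choice. The nearest to Mef2c were Fxyd1 (0.473), Gm29794 (0.567) and Cyp2b10 (0.578). With a prior count of 0.5 in place of 2, 1 of the 5 neighbours of the muscle members stayed in the list, and 0 of the 3 of Pax3, so that these names rest on the handling of low counts.

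Markers of other contractile cells were read beside these results. The summed level of 10 cardiac muscle markers was 7.91 to 13.5 CPM in the Ivl:BRAFV600E and 24.8 to 43.5 CPM in the Ivl:BRAFV600E-SOX2LSL tumours, but Nppa and Myh6 had no read in any tumour, and Nkx2-5 and Myl2 were at or under 3 reads in every tumour. Of the 6 tested, 1 (Nppb) was called higher. Smooth muscle markers summed to 94.5 to 145 CPM against 144 to 342 CPM with overlap, and 1 of 10, Des, which skeletal muscle shares, was called higher by edgeR (2 higher and 1 lower both at an unadjusted p below 0.05 and by DESeq2).

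The summed levels of the fibroblast, adipocyte and Schwann cell lists overlapped between the groups, with 0 genes called by edgeR. At an unadjusted p below 0.05, 2, 3 and 0 of their genes were higher and 0, 0 and 1 lower, and DESeq2 called 2, 1 and 0 higher and 0, 0 and 1 lower. Fibroblast markers were at 778 to 5129 CPM against 4000 to 8372 CPM, adipocyte markers at 27.2 to 58.9 CPM against 31.8 to 156 CPM, and Schwann cell markers at 266 to 285 CPM against 188 to 325 CPM. None of the 10 genes of each of these lists was at 0 in every tumour, and the Schwann cell marker Pmp2 was at or under 3 reads in all. The part of these cells in the levels of the 9 genes was not tested.

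**Figure D4:**
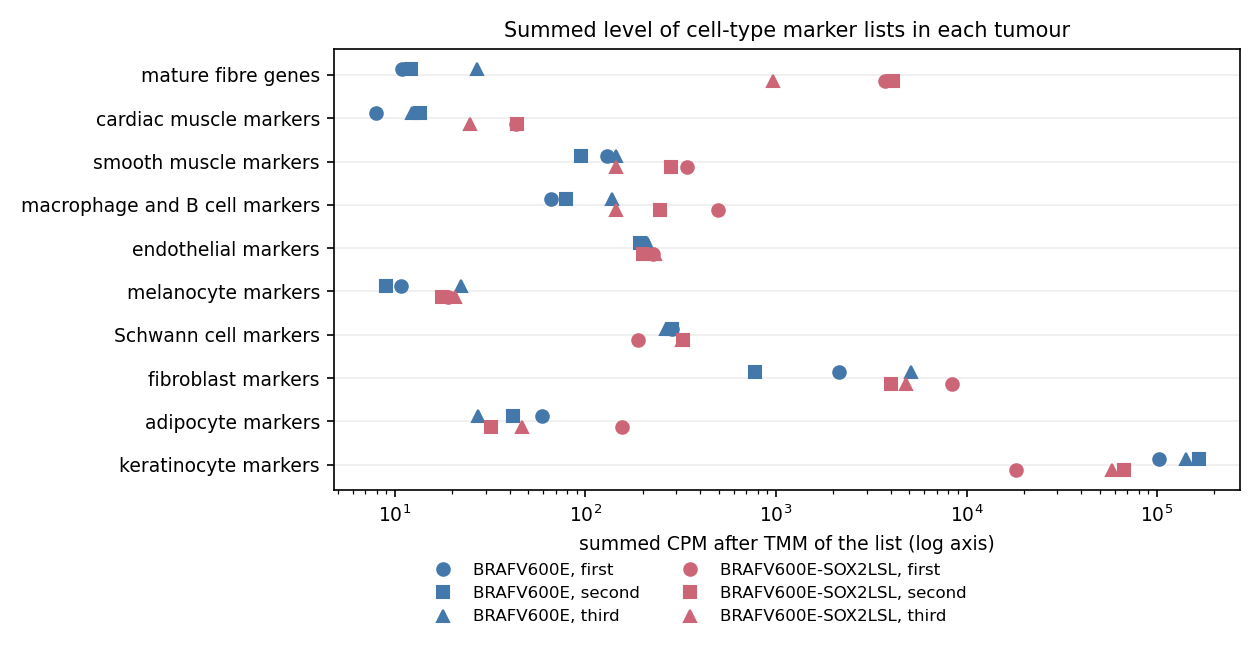
The summed level of 10 lists of cell-type genes in CPM after TMM (horizontal axis, logarithmic) in each of the 6 tumours, Ivl:BRAFV600E in blue and Ivl:BRAFV600E-SOX2LSL in red. The mature fibre genes were at 10.9 to 27.0 CPM against 970.2 to 4127 CPM, while the endothelial, melanocyte and Schwann cell lists overlapped between the groups.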

How the data were processed

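Bulk RNA of mouse skin tumours was sequenced after depletion of ribosomal RNA. The authors trimmed the reads (FastQC 0.11.8, Trim Galore), aligned them to GRCm38 with HISAT2 2.1.0, counted them per gene with featureCounts (Subread 1.6.3) and deposited raw counts. Strand and multimapping settings are not given in the sources used here. Columns were assigned to genotypes by mouse name through the study's list of mice. The deposited columns carry no replicate numbers, and 1 further column that matched no listed mouse was not used. The labels list 4 Ivl:BRAFV600E and 3 Ivl:BRAFV600E-SOX2LSL samples, so 1 labelled Ivl:BRAFV600E sample was not analysed here. The unused column is named like those of the Ivl:BRAFV600E-SOX2LSL mice. Its EGFP and Sox2 reads were not used to place it, and its group is left in doubt.

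A gene was tested if any 1 tumour had 5 or more reads on it (24433 genes), library sizes were scaled by TMM, and groups were compared with edgeR 4.0.16 (quasi-likelihood, Benjamini-Hochberg at 0.05) in R 4.3.3. CPM uses the scaled library sizes, and log2 CPM a prior count of 2. SE is the log2 fold change divided by the root of F. Genes named were the 9 members, and from each list the 2 with the smallest p and the 2 with the highest mean CPM. Other list genes named were called, or chosen after their values were seen. The members and lists were chosen with earlier results of these data known. Alternatives were DESeq2 1.42.0, limma 3.58.1 (voom), DESeq2's size factors, upper-quartile scaling, leaving out the 10 most abundant genes, no filter, filterByExpr, a log2 fold change above 1, sex as a covariate and each tumour left out. Scripts were tested on simulated data. Coordinates and exons are from GENCODE M21 and promoters from RefSeq (GRCm38.p6). Figures used matplotlib 3.10.9 in Python 3.11.15. Intervals are at 95% and the floor is 3 reads.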

Additional observations from a re-analysis of the deposited data

How the results depend on the processing

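No paired analysis was possible because the columns of the count table carry no replicate numbers. Each tumour came from a different mouse, so a replicate number shared between the genotypes would not by itself make a pair. Of 106 refitted log2 fold changes of the 8 tested members, 93 kept their direction and side of the threshold. Under DESeq2, 5 members were called higher, with fitted log2 values of 5.57 for Myod1, 6.40 for Myog, 1.47 for Mef2c and 3.23 for Cdh15 newly called. The fitted values of Myod1, Myog and Myf6 are set against a group with no reads and are no measure of size. No member was called (0) with limma voom, DESeq2's size factors or sex as a covariate, where the fitted value of Myf6 was 5.82, 8.38 and 7.74. Leaving out 1 tumour gave 0 to 1 members higher, Myf6 at 7.35 to 8.78 and Chrnd at -0.77 to 2.00, reversed without the second Ivl:BRAFV600E-SOX2LSL tumour. The count of list genes higher (40) was 11 with limma voom, 24 with sex as a covariate and 0 to 45 with 1 tumour left out. The count lower (1) was 4 with DESeq2, 0 with sex as a covariate and 0 to 1 with 1 tumour left out. Over all genes, 954 calls became 22 without the first Ivl:BRAFV600E tumour, 1575 without the first Ivl:BRAFV600E-SOX2LSL tumour and 3653 with DESeq2. Of 336 refitted values of the named list genes, 283 kept their direction and side of the threshold, 41 lost a call, 8 gained one and 4 reversed. Erbb3 stood at 0.043 with sex as a covariate and at -0.18 to 0.22 with 1 tumour left out, and Prkar1a at -0.19 to 0.017. Of the 5 genes nearest to the muscle members, 1 remained with a prior count of 0.5 and 2 with Pearson's r. The cause of these changes was not tested. Levels under 3 reads, up to 0.143 CPM in the library where they weigh most, could not be told from 0 at this depth.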
